A study of Mus musculus with 36 samples.

Results

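The genes examined were those that code for the proteins of the cytosolic ribosome, and the measurement was whether 2 histone marks were found at their promoters in mouse pancreas. The genes were chosen by symbol alone, as autosomal protein-coding genes of the mm10 annotation named Rpl or Rps with a number, together with Rplp0, Rplp1, Rplp2 and Rpsa. This gave 76 genes of 20807 autosomal protein-coding genes. A further 4 genes that carry such names lie on the X chromosome and were left out, because mice of both sexes were used. The rule also takes in Rps27l and 3 relatives with a tissue-restricted name, Rpl3l, Rpl10l and Rpl39l. It misses ribosomal proteins with other names, such as Rack1 and Fau, which were counted apart. Whether a peak stood at a promoter was not used to choose the genes.

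The ribosome is the machine that translates mRNA into protein, and it is built from a small subunit (the Rps proteins) and a large subunit (the Rpl proteins) around ribosomal RNA. Its protein genes are used in practically every cell, and acinar cells, which fill most of the pancreas and secrete digestive enzymes, are known for very high protein synthesis. Trimethylation of histone H3 at lysine 4 (K4me3) is found at the starts of active genes, whereas trimethylation at lysine 27 (K27me3) is laid down by EZH2 and related complexes at repressed genes. A class of genes that is always on therefore gives a reference for where K4me3 should be and K27me3 should not, and it shows how far each mouse and library kept to that.

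The peaks came from ChIP-Seq on whole pancreata, taken 22 days after tamoxifen (TX) gavage from mice given TX at an age of 2 to 4 months, with K4me3 and K27me3 measured in the same 12 mice. Of these, 3 were controls, labelled wild type and also gavaged with TX. The study describes its controls as C57BL/6 mice or mice with the Mist1creERT allele alone. The Ezh2ΔSET mice (n = 3) carried Mist1creERT/+ and lost the catalytic SET domain of EZH2. The other 6 mice, of 2 further genotypes, entered the counts and medians over all 12 mice and the common estimate of the spread, and are not compared by genotype here. The Cre is driven from the Mist1 locus and acts in acinar cells only, so that chromatin of duct, islet, immune and stromal cells in the same tissue stayed unrecombined, and 1 Mist1 allele was lost to the Cre. Beyond being separate mice, nothing is stated on litters or on the days of preparation. A mark called less often in whole tissue cannot be told apart from a mark carried by fewer of its cells.

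Each list gave the positions of peaks without heights or read counts, so that depth is unknown. A gene counted as marked in a mouse if any of its transcription start sites (TSSs) lay within 3 kb of a peak. K4me3 lists held 16912 to 25433 autosomal peaks and K27me3 lists 15782 to 29041, and the lowest numbers of both were those of control replicate 2. In that mouse 18.98% of the genes with K4me3 also had K27me3, against 2.49% to 9.35% in the other 11 mice, so the K27me3 counts and width calls that it bears on are also given without it. Of the acinar markers, all 11 that could be tested carried K4me3 in all 12 mice, and their median peak width was 7830.5 bp. K27me3 was called at 5 of the 11 with control replicate 2 and at none without it. None of 5 markers of other tissues (Alb, Myh6, Neurod6, Gfap, Olig2) had K4me3 in all mice, and of 5 duct, 6 islet, 6 immune, 6 stromal and 3 endothelial markers the numbers that did were 3, 2, 1, 2 and 1. A peak at the start of Ezh2 lies outside the recombined part of the gene and does not check the genotype.

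K4me3 marked nearly the whole class in every mouse. Of the 76 ribosomal protein genes, 72 (94.7%) had a K4me3 peak in all 12 mice, against 12115 (58.2%) of all autosomal coding genes. The number per mouse was 73 in each of the 3 control mice, 72, 73 and 73 in Ezh2ΔSET mice and 73 or 74 in each of the other 6, and so it did not depend on the library that stood apart. No ribosomal protein gene had K4me3 in all 3 mice of one genotype and in none of the other when Ezh2ΔSET was set against control, where 0.111% of all genes did.

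The exceptions were Rps6 and the 3 tissue-restricted relatives. Rpl10l and Rpl39l, relatives of X-linked ribosomal protein genes that are known for expression in testis, had no K4me3 peak in any mouse. The nearest K4me3 peak to the 5′ end of Rpl39l lay 22282 to 22601 bp away, at Atf7ip2, and that of Rpl10l lay more than 1 Mb away in each mouse. Rpl3l, a relative of Rpl3 known for expression in striated muscle, was called in 3 of the 12 mice, none of them control or Ezh2ΔSET. These calls came from the edge of the peak over the start of Msrb1, the next gene downstream, which was 6027, 5910 and 6333 bp wide in the 3 mice. It lay 2968, 2948 and 2999 bp from an annotated Rpl3l start 4865 bp inside the gene, and 3001 to 3452 bp from that start in the 9 mice without a call. The nearest peak to the 5′ end of Rpl3l was on the other side, over Ndufb10, at 3061 to 3314 bp, and no peak covered the 5′ end in any mouse. The call thus turned on 2 bp between the 2999 bp of a mouse with it and the 3001 bp of control replicate 3, and no difference at Rpl3l is read from it.

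Rps6, a protein of the small subunit known as a target of S6 kinase, carried K4me3 over its start in 11 mice. Its peak was 3184, 2676 and 3611 bp wide in control mice, 3449 and 3221 bp in Ezh2ΔSET replicates 2 and 3, and 2988 to 3740 bp in the other 6 mice. In Ezh2ΔSET replicate 1 no peak was listed there, and the nearest was 16284 bp upstream, at Acer2. In that mouse alone 12 coding genes lacked a peak that the other 11 mice had, and Rps6 was the only ribosomal protein gene among them. In control replicate 2, where 373 genes were missing in this way, no ribosomal protein gene was. The reason for the gap at Rps6 was not tested.

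The promoters of the unmarked relatives are shown for comparison with those of marked members. Each sequence runs from 80 bases before to 20 bases after the start of the RefSeq transcript on GRCm38.p6, 5′ to 3′, and capitals mark CpG dinucleotides. CpG-rich promoters are known to attract the enzymes that write K4me3.

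Rpl3l, chr17:24727746-24727845, plus strand: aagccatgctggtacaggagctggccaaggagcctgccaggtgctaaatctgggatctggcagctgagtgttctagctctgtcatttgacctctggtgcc

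Rpl10l, chr12:66284382-66284481, minus strand: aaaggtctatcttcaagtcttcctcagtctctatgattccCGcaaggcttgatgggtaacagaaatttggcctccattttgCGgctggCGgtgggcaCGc

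Rpl39l, chr16:10170148-10170247, plus strand: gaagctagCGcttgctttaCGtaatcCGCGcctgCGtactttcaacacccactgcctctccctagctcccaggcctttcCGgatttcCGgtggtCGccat

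The first has no CpG in these 100 bases, the second 4 and the third 8. Members that carried K4me3 in all or all but 1 of the mice, with roles described below, had the following.

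Rpsa, chr9:120127686-120127785, plus strand: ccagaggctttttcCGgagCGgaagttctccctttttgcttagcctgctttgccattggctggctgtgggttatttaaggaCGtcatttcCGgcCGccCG

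Rplp0, chr5:115559387-115559486, plus strand: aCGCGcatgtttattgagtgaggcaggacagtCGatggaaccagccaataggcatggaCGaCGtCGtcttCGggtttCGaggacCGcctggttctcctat

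Rps6, chr4:86857348-86857447, minus strand: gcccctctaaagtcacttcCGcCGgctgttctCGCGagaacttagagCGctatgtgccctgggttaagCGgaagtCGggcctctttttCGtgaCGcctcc

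Rps19, chr7:24884512-24884611, plus strand: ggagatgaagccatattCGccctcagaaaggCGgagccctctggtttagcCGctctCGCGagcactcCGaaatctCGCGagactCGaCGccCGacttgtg

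Rps15, chr10:80292351-80292450, plus strand: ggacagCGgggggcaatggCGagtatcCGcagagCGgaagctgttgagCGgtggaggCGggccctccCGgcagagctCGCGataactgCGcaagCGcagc

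Rpl11, chr4:136053374-136053473, minus strand: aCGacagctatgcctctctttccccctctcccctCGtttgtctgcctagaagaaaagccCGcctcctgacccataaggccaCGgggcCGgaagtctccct

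These hold 6, 9, 9, 11, 11 and 5 CpGs, so the count in so short a stretch did not separate marked from unmarked members. Within 250 bp of the TSS, the observed over expected CpG ratio was 0.08 for Rpl3l, 0.67 for Rpl39l and 0.86 for Rpl10l. Its median was 0.89 over the 72 members with K4me3 in all mice (lowest 0.57, highest 1.13), 0.80 over the 12115 coding genes with K4me3 in all mice, and 0.18 over the 6632 genes with K4me3 in none. Rpl10l and Rpl39l thus lay within the range of the marked members on this measure, whereas Rpl3l did not.

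Promoters of 56 members were matched in RefSeq (GRCm38.p6, 250 bases before to 50 after the start). The ETS core CCGGAAG, searched on both strands, was in 22 of 56 (39.3%), against 12.4% of 15687 coding promoters and 18.9% of those with K4me3 in all mice. The letters CGCGAGA, a core of ZBTB33-type sites, were in 13 of 56 (23.2%), against 3.70% and 5.54%. TATAAA was in 3 of 56 (5.36%), against 12.9% and 6.52%, and AAGATGGC, the letters of YY1-type sites, in 4 of 56 (7.14%), against 3.26% and 4.67%. A run of at least 5 pyrimidines at the annotated start, the feature of mRNAs with a terminal oligopyrimidine tract, was found at 14 of 56 (25%), against 3.88% and 4.07%. These are matches of letters, and annotated starts may be off by some bases, so a promoter without a match says nothing on the factor.

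K27me3 was all but absent from the class. Only 2 of 76 ribosomal protein genes had a K27me3 peak within 3 kb of a TSS in any mouse, each in 1 mouse, against 6923 of 20807 coding genes (33.3%) in at least 1 mouse. Rpl17, a protein of the large subunit, had one of 7515 bp in control replicate 2, whose edge lay 534 bp upstream of the 5′ end of the gene. The K4me3 peak of Rpl17 in that mouse began 1194 bp downstream of that end, so the 2 marks lay side by side and did not overlap. In the other 11 mice the nearest K27me3 peak to Rpl17 was at least 27104 bp away, and without control replicate 2 a single member was left, against 24.7% of all genes. The other was Rpl39l, with a peak of the smallest width in the lists, 5001 bp, in 1 of the other 6 mice. Its edge was 2693 bp from a TSS, and in Ezh2ΔSET replicate 3 a peak stopped 3002 bp away, just outside the window. Of the members without a call, Rpl37a came closest, with a peak 3.15 kb away in 1 mouse.

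The comparison with marked genes is closer, since genes with K4me3 had K27me3 less often than the rest. Of the 12115 genes with K4me3 in all mice, 2407 (19.9%) had K27me3 in at least 1 mouse and 1138 (9.39%) without control replicate 2. Of the 72 ribosomal protein genes among them, 1 had it with that mouse and 0 without it. Mitochondrial ribosomal proteins, the separate set that serves the organelle, all had K4me3 in all 12 mice (78 of 78), but 13 of the 78 had K27me3 in at least 1 mouse and 9 without control replicate 2. Mrps35 had it in 9 mice, or 8 without control replicate 2. No ribosomal protein gene had K27me3 in all 3 mice of one genotype and in none of the other in Ezh2ΔSET against control, where 0.207% of all genes did. At this share 76 genes would hold less than 1 such gene, so nothing about the class is read from that 0. The distance from the TSS to the nearest K27me3 peak had a median of 277.5 kb over the 72 members and 207.3 kb over the 12115 genes. Among the 72 the distance, as a median over the 12 mice, was shortest for Rpl37a (23.1 kb) and Rps9 (23.5 kb).

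**Figure D1:**
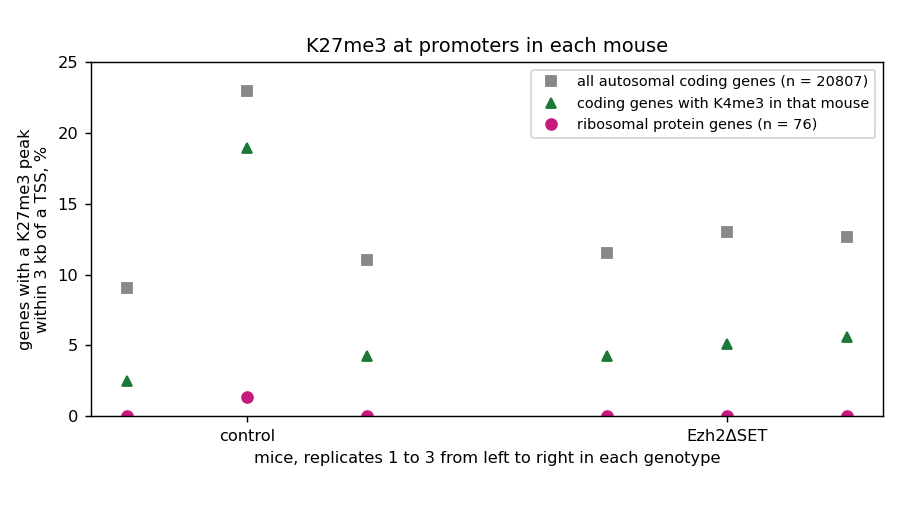
Share of genes with a K27me3 peak within 3 kb of a TSS (%, vertical axis) in each of the 3 control and 3 Ezh2ΔSET mice along the horizontal axis, for all autosomal coding genes (squares), genes with K4me3 in that mouse (triangles) and the 76 ribosomal protein genes (circles). Ribosomal protein genes are at 0 in 5 of these mice and at 1 gene of 76 in control replicate 2, while all genes lie between 9.03% and 22.9%, with control replicate 2 the highest.

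The width of the K4me3 peak, from one edge to the other, differed over a wide range within the class, and at most members less so between mice. Over the 12 mice, the median width of the 72 members was 2904.5 bp (quartiles 2496 and 3518.5 bp), against 2345 bp for the 12115 genes, and 60 of 72 members lay above that value. Most members, 64 of 72, were between 2 and 4 kb wide, as were 50.6% of all genes. In control mice the median over members was 2858.5, 2533 and 2951.5 bp, in Ezh2ΔSET mice 2912, 2997 and 3101 bp, and in the other 6 mice between 2680 and 3278 bp. The mean was 2781 bp ± 220 (SD, n = 3) in control, or 2905 bp without replicate 2, and 3003 bp ± 94.7 (SD, n = 3) in Ezh2ΔSET mice. In each of the 12 mice it was above the median over all genes of the same library, 1.17 to 1.34 times, and the lowest ratio was that of control replicate 2. Over all mice the mean of the medians was 2915 bp ± 195 (SD, n = 12).

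**Figure D2:**
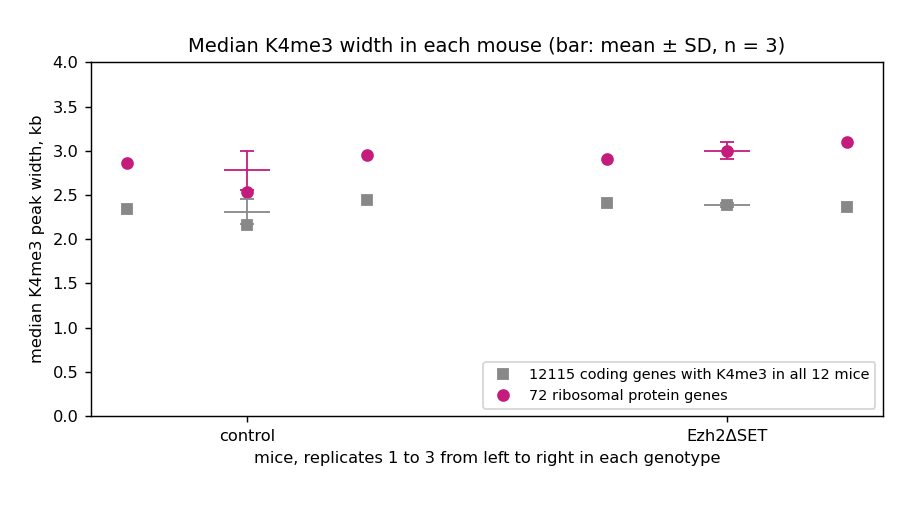
Median K4me3 peak width (kb, vertical axis) in each control and Ezh2ΔSET mouse for the 72 ribosomal protein genes (circles) and for all 12115 coding genes with K4me3 in all 12 mice (squares), with horizontal marks and error bars for the mean ± SD of 3 mice. The circles lie above the squares in all 6 mice, and control replicate 2 has the lowest value of both.

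Members are also described by whether their peak held another start site. A wide peak is more likely to reach a second start, so this split depends in part on the width itself and no difference is read from it. At 16 members the peak held the principal TSS of another coding gene, and these had a median width of 3427.5 bp, whereas the 56 without one had 2706.5 bp. Over all genes the same 2 classes had 2755 bp (n = 2417) and 2218.5 bp (n = 9698). The 27 members that host snoRNA genes in their introns, which code for small RNAs that guide modification of ribosomal RNA, had a median of 3425 bp, and the 45 others 2759.5 bp. Small and large subunit members had medians of 2941.5 bp (n = 29) and 2759.5 bp (n = 43). Over all 72 members, width followed neither gene length (Pearson's r = -0.03, Spearman's rho = -0.01, n = 72) nor the CpG ratio (r = -0.06, rho = 0.08). Over the 56 with no other coding start in the peak, r and rho were 0.001 and -0.06 for gene length and 0.17 and 0.20 for the CpG ratio. For the number of snoRNA genes inside they were 0.15 and 0.24 over the 72 and 0.39 and 0.34 over the 56. These correlations describe genes measured in the same libraries, and genes are not independent replicates.

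The 5 widest were Rpl35, Rpl18, Rps2, Rpl7a and Rpl7, all with another coding gene's start in the peak (Arpc5l, Sphk2, Ndufb10, Med22 and Rdh10). Of these, Rpl35, Rpl18 and Rps2 varied most between mice. The Rpl18 peak was 2513 to 3559 bp wide in 4 mice and 5988 to 8192 bp in the other 8, and the Rpl35 peak 3151 to 4613 bp in 3 mice and 6675 to 7334 bp in 9. When peaks within 1 kb of each other were merged, these ranges narrowed to 5503 to 8192 bp and 6654 to 8439 bp, so the low values were those of a domain listed in pieces. Rps2 was 2737 to 3801 bp wide in 5 mice and 5729 to 6010 bp in 7. In those 5 mice Ndufb10 had a peak of its own, 1531 to 1861 bp wide, whereas in the other 7 a single peak covered both starts. Rps18 was 3477 to 4259 bp wide in 8 mice and 8311 to 8675 bp in 4. Merging changed neither range. Narrow peaks of Rpl18 were listed in control replicate 2, Ezh2ΔSET replicate 3 and 2 of the other 6 mice, and wide peaks of Rps18 in control replicate 3 and 3 of the other 6. Narrow peaks of Rps2 were those of replicate 1 in each of the 4 genotypes and of control replicate 2. What the replicate numbers mark is not stated, and the cause was not tested. In 59 of 72 members the widest and the narrowest peak over the 12 mice differed by less than 1.5 times, with a median ratio of 1.30. The within-genotype SD of log2 width, relative to the library median, had a median of 0.09 over members and 0.11 over all genes.

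Rpl7a and Rpl7, both of the large subunit, were steadier, at 3566 to 4640 bp and 3949 to 4892 bp over the 12 mice. At the other end stood Rps15 (1435 to 1850 bp), Rpl5 (1794 to 2215 bp), Rps20 (1842 to 2298 bp), Rpl11 (1796 to 2428 bp) and Rpl27 (1819 to 3310 bp). None of these 5 shared its peak with another coding start. Rps15, of the small subunit, had a median of 1677.5 bp, and 21.0% of all genes were narrower.

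**Figure D3:**
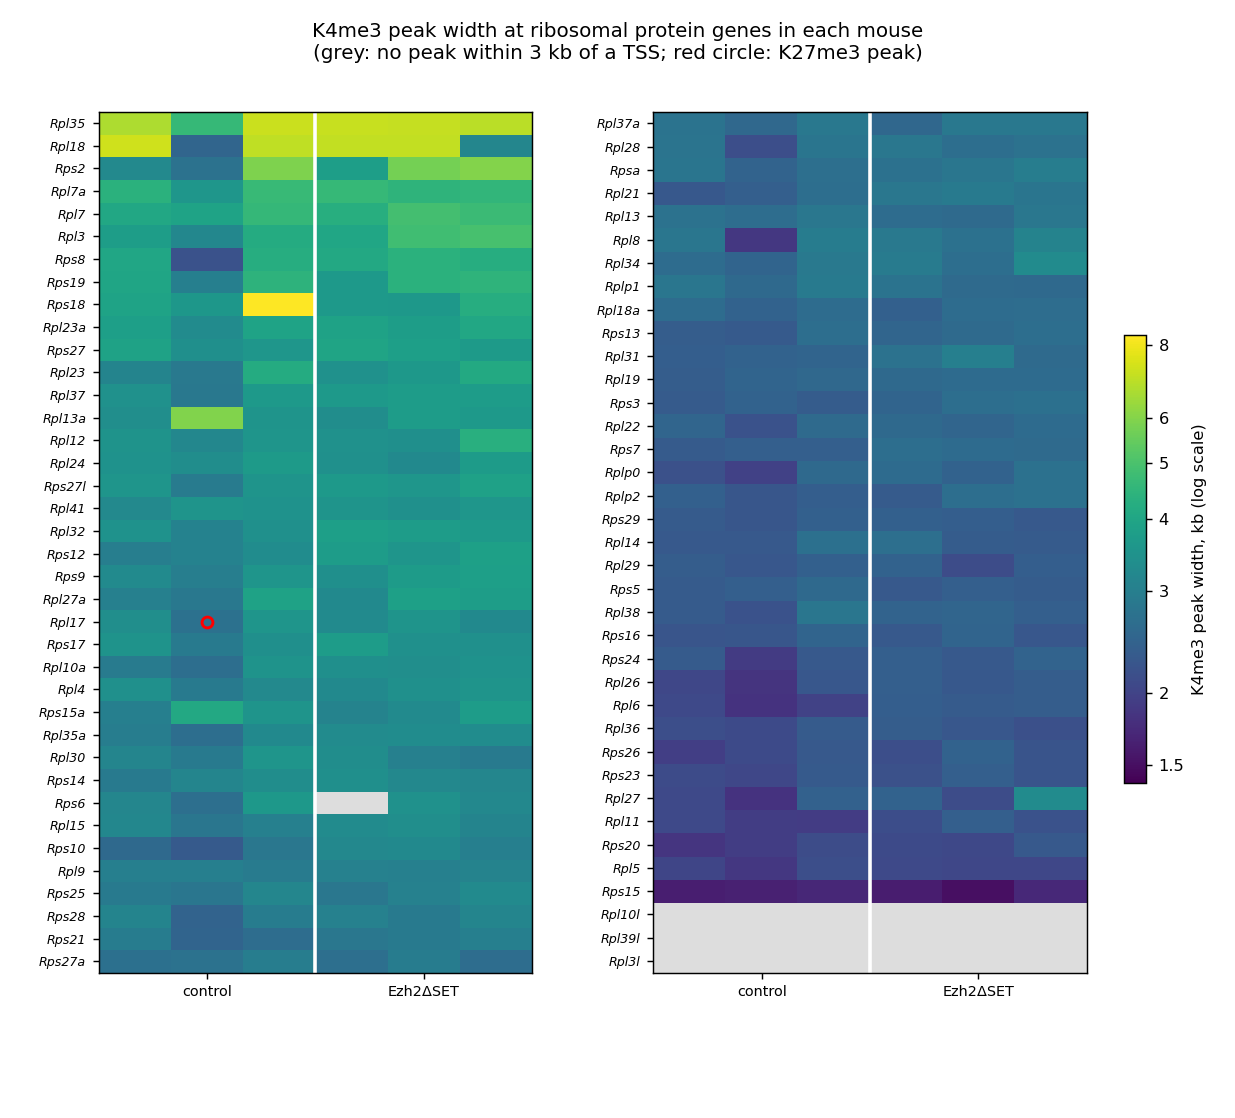
Width of the K4me3 peak (kb, colour on a log scale) for 75 of the 76 ribosomal protein genes (rows, in order of median width over 12 mice) in each control and Ezh2ΔSET mouse (columns, replicates 1 to 3). Grey marks no peak and the red circle a K27me3 call. Most rows keep their colour across the 6 mice, Rpl18, Rps18, Rpl35 and Rps2 do not, and grey fills the rows of Rpl10l, Rpl39l and Rpl3l and 1 cell of Rps6.

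The peak lay mostly within the gene. Measured from the principal TSS in the direction of transcription, it reached a median of 824 bp upstream and 1994 bp downstream over the 72 members, against 806 bp and 1384 bp over the 11776 genes with a peak near that site. Reach was that of the peak closest to this site, which was not always the widest one used for width. On this measure members exceeded all genes mainly on the downstream side. As these genes are short, with a median length of 3.40 kb against 24.2 kb, the peak covered much of the gene body in many of them. The closest peak covered the principal TSS in all 12 mice at 97.2% of these members and 84.5% of the genes. The exceptions were Rps15, covered in 11 mice, and Rpl38, covered in 3, where the peak began a median of 43 bp downstream of the annotated site. Upstream reach was short for Rplp0 (177 bp), Rps15 (200.5 bp), Rps24 (205.5 bp) and Rpl8 (216.5 bp). Of these, Rpl8 had more than 1 peak near its TSS in 11 mice. Upstream reach was longest for Rpl35 (4264.5 bp), Rpl18 (2776.5 bp), Rpl7a (2424 bp) and Rpl7 (2407.5 bp), all among the members that share a peak with another coding start.

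**Figure D4:**
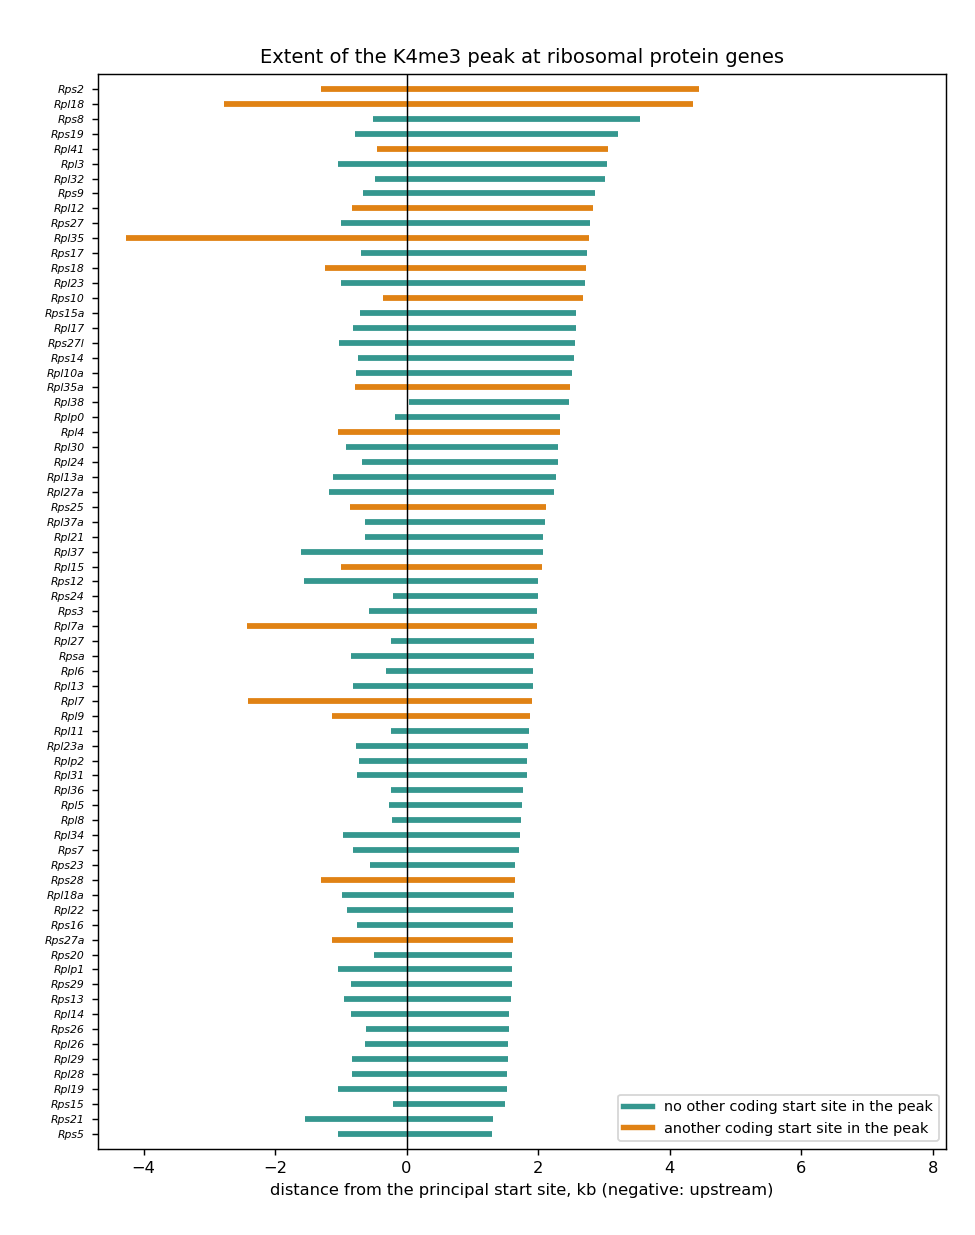
Median extent over 12 mice of the K4me3 peak closest to the principal start site, as distance from that site (kb, horizontal axis, upstream negative), for 71 of the 72 ribosomal protein genes in order of downstream reach. Bars in orange hold another coding gene's start site. Downstream reach runs from 1305 to 4444.5 bp, and the 4 longest upstream reaches are orange bars.

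Single members with particular roles differed in width. The stalk proteins Rplp0, Rplp1 and Rplp2, which recruit translation factors to the large subunit, had median widths of 2512, 2679.5 and 2446.5 bp. Rpsa, the small subunit protein also known as the laminin receptor, had 2757.5 bp. Rpl5 and Rpl11, which together with 5S RNA bind MDM2 when ribosome assembly fails, were among the narrowest. Rps19, mutated in Diamond-Blackfan anaemia, had a wide peak of 3999 bp with no other coding start in it, which reached 3211 bp downstream. Rpl13a, whose product is also known to repress translation of some mRNAs after interferon, had 3646 bp, with 5925 bp in control replicate 2 and 3274 to 4880 bp in the other 11 mice. Rps27a, which is made as a fusion with ubiquitin, had 2781.5 bp, shared with Clhc1, and Rps27l, known as a target of p53, had 3535 bp and K4me3 in all 12 mice, unlike the other 3 relatives.

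Whether EZH2 loss changed the width was tested with limma on log2 width, relative to the median of each library, over the 12115 genes with K4me3 in all mice. No ribosomal protein gene passed an adjusted p of 0.05 in Ezh2ΔSET against control, where 6 genes in all did (0.0495%). At an unadjusted p under 0.05 there were 5 of 72 members (Rps10, Rpl3, Rpl32, Rps12 and Rpl21), where the share of all genes was 6.11%, so the count of members was near that background. Leaving out control replicate 2 raised the number of all genes called to 34, and it was still 0 for members. With 3 mice a group, an adjusted p that missed the threshold does not show that a gene kept its width.

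The median log2 difference over the 72 members was 0.06 in Ezh2ΔSET against control, and 0.01 over all genes. This shift is about the size of the SD between mice of 1 genotype in the median over members, 0.06. Above 0 were 49 of 72 members. The median over members was 0.03 without Ezh2ΔSET replicate 3 and 0.03 with quantile normalization. Without centring on the library medians it was 0.10, where all genes had 0.06 and 59 of 72 members lay above 0. Several lists of cell type markers had medians further from 0, though none of their genes passed the test. The median log2 difference was 0.42 over 11 acinar markers, all above 0, and 0.20 over the 3 duct markers that could be tested. It was -0.17 over 2 islet and -0.16 over 2 stromal markers. In each of these 2 lists 1 of the 2 markers lay above 0, so neither list shows a common direction. The 1 immune and 1 endothelial marker tested had 0.09 and -0.03. The part of these in the shift of members was not tested. Members whose 3 Ezh2ΔSET mice all lay above all 3 control mice numbered 8 (6.81% of all genes did), and 1 lay below (5.11%).

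The 2 members with the largest differences among those whose groups did not overlap are given with their widths. Rps10, a small subunit protein, was 2581, 2312 and 2836 bp wide in control and 3219, 3260 and 3030 bp in Ezh2ΔSET mice. All 3 Ezh2ΔSET mice lay above control, by 0.26 ± 0.08 (log2 difference ± SE, adjusted p = 0.68 with limma). The peak of Rps10 also holds the start of the readthrough gene RPS10-NUDT3. Rpl6, of the large subunit, had 2072, 1817 and 1993 bp in control and 2387, 2328 and 2367 bp in Ezh2ΔSET mice, a difference of 0.22 ± 0.12 (adjusted p = 0.78). Neither difference passed the test, and without control replicate 2 they were 0.23 and 0.22. The member that lay lower was the stalk protein gene Rplp1, with 2818, 2584 and 2909 bp in control and 2757, 2602 and 2571 bp in Ezh2ΔSET mice. In bp these overlap, and they separate only relative to the library medians, by -0.11 ± 0.09 (adjusted p = 0.79).

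Members with known roles in disease or signalling did not pass either. Rps19 was 3994, 3014 and 4426 bp wide in control and 3683, 4382 and 4461 bp in Ezh2ΔSET mice, and the groups overlapped. Rpl5 had 2035, 1864 and 2144 bp and 2076, 2043 and 2045 bp, so the Ezh2ΔSET mice lay within the control range. Rpl11 had 2078, 1929 and 1920 bp in control and 2129, 2394 and 2196 bp in Ezh2ΔSET mice, which lay higher in bp but overlapped relative to the library medians, by 0.13 ± 0.10 (adjusted p = 0.79 with limma). Rpsa had 2797, 2466 and 2686 bp and 2718, 2816 and 2976 bp, and Rplp0 had 2182, 1970 and 2569 bp and 2610, 2455 and 2732 bp, with overlap in both.

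**Figure D5:**
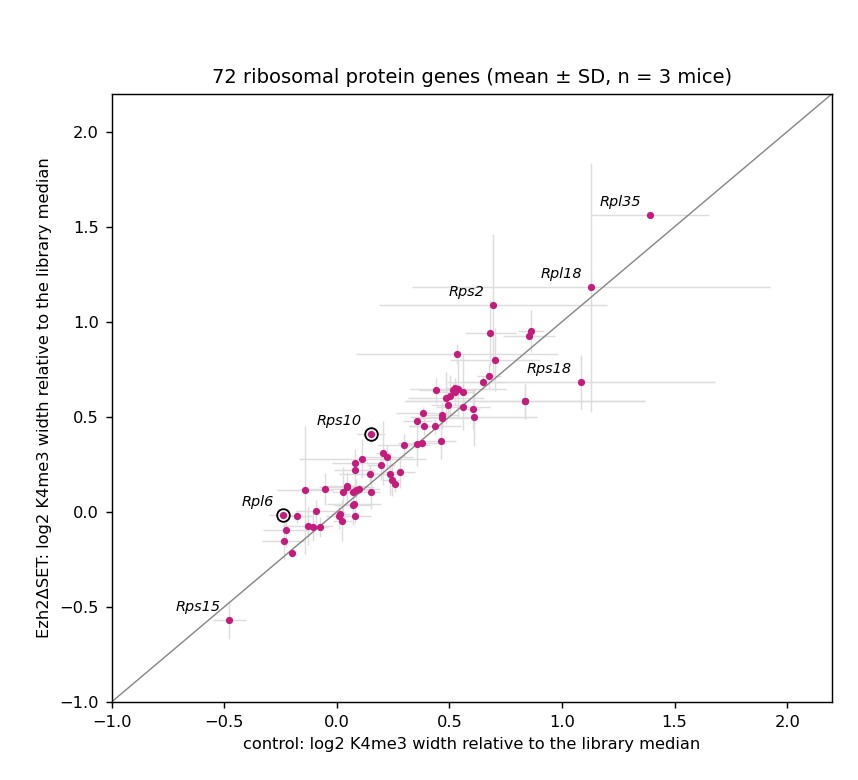
Log2 K4me3 width relative to the library median in control (horizontal axis) and Ezh2ΔSET mice (vertical axis) for the 72 ribosomal protein genes (points, mean of 3 mice, with SD as grey bars) and the line of equal width. Ringed are Rps10 and Rpl6, and Rpl18, Rps2 and Rps18 have the long bars of peaks that were wide in some mice and narrow in others.

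Most other genes of translation also carried K4me3 in every mouse. Of 8 further cytosolic ribosomal genes, 7 had K4me3 in all 12 mice, among them Rpl22l1, Rps3a1, Rack1, Rpl36al, Rpl7l1 and Fau. The exception, the retrogene Rps27rt, had K4me3 in 3 mice and K27me3 only in control replicate 2. K4me3 was present in all mice at 21 of 22 translation factors (median width 3721.5 bp), 18 of 18 ribosome biogenesis genes (2554 bp) and 10 of 10 genes that control the translation of terminal oligopyrimidine mRNAs (3143 bp). The translation factor without it was Eef1a2, an elongation factor isoform known from muscle and neurons, which had K27me3 in 5 mice, or 4 without control replicate 2, whereas its relative Eef1a1 had K4me3 in all 12 and K27me3 in none. K27me3 was called in at least 1 mouse at 3 translation factors (Eef1a2, Eif3f and Eif3e), 2 without control replicate 2, and at 2 ribosome biogenesis genes (Pes1 and Npm1), 1 without it. None of the 10 genes of the terminal oligopyrimidine list had it. The share of all coding genes was 33.3%, and 19.9% of those with K4me3 in all mice, or 24.7% and 9.39% without control replicate 2. The lists were not tested against each other, and they are too short for counts this low to set them apart. Mitochondrial ribosomal proteins were narrower, with a median of 2139 bp over 78 genes. Acinar markers were far wider, and all 11 exceeded 5 kb. None of these genes was called for width in Ezh2ΔSET against control, though all 11 acinar markers had fitted differences above 0, with a median of 0.42 on the log2 scale.

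Copies of ribosomal protein genes without introns are scattered over the genome, and 250 are annotated as pseudogenes with such a name. Of these, 220 (88%) had K4me3 in no mouse and 14 in all 12, of which 9 had a coding TSS within 3 kb. The 5 others included Rpl21-ps11, Rpl31-ps7, Rps19-ps10 and Rps26-ps1. K27me3 was found in at least 1 mouse at 74 of the 250 (29.6%), against 33.3% of coding genes, and without control replicate 2 at 65 (26%), against 24.7%, so the shares lay near that background. Reads from such copies and from their parent genes can be hard to place, and how far that bears on these values was not tested.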

How the data were processed

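K4me3 and K27me3 peaks were taken from ChIP-Seq of whole pancreas in 12 mice, 3 per genotype, as 24 peak lists, and 12 input libraries had no list of their own. The authors used Bowtie2 for alignment (mm10) and HOMER for peaks in each library over its input, per the labels and the study's methods. The deposited lists give coordinates and a score that is 1 for every peak. They hold no heights or counts, so depth is unknown, and width moves with depth and with the peak caller's stitching. The smallest width listed was 501 bp for K4me3 and 5001 bp for K27me3.

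Genes and TSSs came from GENCODE vM21 (mm10), on autosomes. A mark was called where a peak overlapped 3 kb on either side of a TSS, and width was that of the widest such peak. Genes near the same peak share its width, so members do not always stand for separate peaks. Log2 width, centred on each library's median, was fitted over the 12115 genes with K4me3 in all 12 mice with limma 3.58.1 (R 4.3.3, trended variance, all 4 genotypes in 1 fit), with Benjamini-Hochberg adjusted p-values and a threshold of 0.05. Intervals were handled in pandas 2.3.3 and numpy 2.4.6 (Python 3.11.15), and plots were drawn with matplotlib 3.10.9. The fit was tested on simulated data for Ezh2ΔSET against control. It recovered 54% of the genes changed by 0.5 on the log2 scale and 95% of those changed by 1, with 8 false calls. The differences given for Rps10 and Rpl6 are smaller than 0.5. Named for the comparison of Ezh2ΔSET with control were the 2 members with the largest difference among those whose 3 against 3 mice did not overlap, besides members absent in some mouse, the 5 widest and 5 narrowest, the stalk members and Rpsa, and Rpl5, Rpl11, Rps19, Rps6, Rpl13a and Rps27a. Members named for shape or for variation between mice were chosen after their values were seen. The members and lists were chosen with earlier results of these data known.

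Alternatives were other windows, minimum overlaps and widths, equal numbers of peaks, the nearest TSS only, other definitions of width, other centring, a replicate block and leaving out each mouse. Replicate numbers are shared across genotypes in the labels, which do not say what they mark. Promoter sequences were from RefSeq (GRCm38.p6), where 56 members were matched. Some comparisons and genes of the series are not reported here.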

Additional observations from a re-analysis of the deposited data

How the results depend on the processing

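No ribosomal protein gene was called for K4me3 width in Ezh2ΔSET against control under any of the 20 alternatives, and over the fits that left out a mouse the lowest adjusted p of a member was between 0.46 and 0.93 (limma). K4me3 in all mice held at 72 of 76 members in the other settings but fell to 69 when peaks were given to the nearest TSS only, which lost Rpl18, Rpl41 and Rpl7a, and was 72 to 73 when mice were left out. K27me3 at 2 members became 1 with a 1 kb window, with at least 500 bp of overlap or with equal numbers of the widest peaks, 0 with the nearest TSS only, and 1 to 2 when mice were left out. The median width of members was 2882 to 2950 bp when mice were left out and 2690 bp over members with no other coding TSS in the peak, an alternative chosen after seeing the data.

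Calls over all genes varied with the setting. There were 6 in Ezh2ΔSET against control, 3 without centring, 0 with the replicate block and 0 to 34 when mice were left out, with 34 without control replicate 2, and the cause was not tested. These 34 were 0.272% of the genes tested. At such a share 72 members would hold less than 1 call, so nothing about the class is read from their 0. Control and Ezh2ΔSET mice share replicate numbers, but deviations of same-numbered mice correlated at 0.09, 0.18 and 0.08. The numbers were not taken to pair the mice, and no member was called with the block. These values do not settle whether same-numbered mice share something, and Rps2 was narrow in replicate 1 of each genotype.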

Other observations

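Rps27rt, a retrogene copy of Rps27, had K4me3 in 3 mice with a median width of 2060 bp and K27me3 only in control replicate 2, the library that stood apart, whereas Rps27 itself was marked by K4me3 in all 12. Rpl36al, a copy of an X-linked ribosomal protein gene, had K4me3 in all 12 mice with a median width of 6101.5 bp.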
